A study of Homo sapiens with 10 samples.

Results

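The comparison described here sets 2 groups of PC3 cells, each labelled as carrying a hairpin against RNF2, directly against each other. PC3 is an established human line grown out of a bone metastasis of prostate cancer. The members were chosen by their labels alone: the 2 libraries titled RNF2 shRNA2 and the 2 titled RNF2 shRNA1, 4 of the 10 libraries of the series, over all 18478 genes that could be tested. Per the labels both groups stably expressed a short hairpin RNA, an RNA that directs degradation of a matching transcript. All 10 samples shared a serum-containing growth medium, and the labels name no compound for the hairpin groups. A control hairpin group, Scramble (2 libraries of the same line), is used to place values, and the remaining 4 libraries were treated with PRT4165 or GW-516 for 48 hours and lent only their spread to the fit. The labels used here give neither the hairpin sequences nor whether a line was a single clone, and they do not state whether 2 libraries of 1 group are 2 cultures. All p-values therefore measure the spread between these libraries, which may be technical. Both groups carry a hairpin vector.

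RNF2 encodes RING1B, the RING-finger subunit with which Polycomb repressive complex 1 (PRC1) acts as a ubiquitin ligase. PRC1 places a ubiquitin on histone H2A at silenced genes. Each PRC1 pairs RNF2 or its paralogue RING1 with 1 of several PCGF proteins, among them BMI1, and the PCGF partner decides which further subunits join. The CBX and PHC proteins belong to the canonical form, which reads the histone mark left by PRC2, while RYBP, KDM2B, BCOR, L3MBTL2 and MGA belong to variant forms. In prostate cancer Polycomb proteins are studied for gene silencing, stem-like growth and the signals tumour cells send to immune cells.

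Total counts in the 4 hairpin libraries ran from 65877850 to 108380198, the highest in replicate 2 of the libraries labelled RNF2 shRNA2. The 2 RNF2 shRNA1 libraries were nearly alike: a chi-square test of their counts gave 2.17 per degree of freedom over 14837 genes, or 1.09 with the counts halved because both ends of a read pair were counted, and 30 genes were at least 2-fold apart. The corresponding values between the libraries labelled RNF2 shRNA2 were 13.5, 6.75 and 125, over 15158 genes. Per the file headers the second of these libraries alone carries the suffix L005only, both carry the name 20155 where RNF2 shRNA1 carries sh1, and all 10 headers begin with MDV3 where the labels say PC3. The labels do not say what these names denote. CPM below are counts scaled to library size by TMM. BEST1, chosen after its values were seen, also set that library apart: it stood at 28.2 CPM there, 2.43 in the other library of its group and 3.65 and 4.43 with RNF2 shRNA1. It overlaps the abundant FTH1 on the opposite strand. Both groups carried the epithelial and mesenchymal genes of PC3: KRT18 stood at 329 and 331 CPM with RNF2 shRNA1 and 453 and 466 in the libraries labelled RNF2 shRNA2, and VIM at 1526 and 1522 with RNF2 shRNA1 and 1255 and 1304 in the libraries labelled RNF2 shRNA2. KLK3, the gene of prostate-specific antigen, was at or below 0.0286 CPM in the 4 hairpin libraries. CD3E and CHGA, which mark T cells and neuroendocrine cells, were at 0 in all 4. Of 16 haematopoietic markers 6 could be tested and none was called by edgeR (0 at an unadjusted p below 0.05 and 0 by DESeq2, 1 lower by limma-voom or without replicate 2 labelled RNF2 shRNA2). PTPRC, the pan-leukocyte marker, lay between 0.0560 and 0.200 CPM.

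The gene named as the target did not bear out the label of the second group. RNF2 (ENSG00000121481.6 at 185014496 to 185071740 on chromosome 1, plus strand of GRCh37) stood at 12.1 and 11.96 CPM in the RNF2 shRNA1 libraries, 33.5 and 35.3 in the libraries labelled RNF2 shRNA2 and 30.6 and 28.3 in Scramble. Both RNF2 shRNA1 libraries were far below Scramble, and both libraries labelled RNF2 shRNA2 were above it, so the groups did not overlap (a 2.87-fold difference, log2 1.52, SE 0.058, edgeR adjusted p = 5.1e-17). The gene of BMI1 (ENSG00000168283.9 at 22610140 to 22620413 on chromosome 10, plus strand of GRCh37), the PCGF subunit best known from canonical PRC1, gave the opposite picture at 232 and 230.0 CPM in the RNF2 shRNA1 libraries, 53.01 and 61.6 in the libraries labelled RNF2 shRNA2 and 251 and 255 in Scramble. The low libraries were those labelled RNF2 shRNA2 (a 4.02-fold difference, log2 -2.01, SE 0.053, edgeR adjusted p = 4.5e-12). Any direction given below therefore compares cells with reduced BMI1 mRNA and RNF2 mRNA at or above the control with cells with reduced RNF2 mRNA and BMI1 mRNA near the control. Unless another base is named, "higher" and "lower" mean in the libraries labelled RNF2 shRNA2 relative to RNF2 shRNA1.

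The other RING and PCGF genes moved less. RING1, the paralogue that can replace RNF2, stood at 12.9 and 12.8 CPM with RNF2 shRNA1, 16.2 and 13.8 in the libraries labelled RNF2 shRNA2 and 13.6 and 14.03 with Scramble. It was called higher (log2 0.22, SE 0.074, edgeR adjusted p = 0.015), but replicate 2 of the libraries labelled RNF2 shRNA2 lay within the range of the Scramble libraries. The call was lost without replicate 1 of that group (log2 0.09) and without either RNF2 shRNA1 library (log2 0.22 and 0.20). PCGF6, the partner of RNF2 in the MGA-containing complex, stood at 12.3 and 11.6 CPM with RNF2 shRNA1, 21.9 and 22.7 in the libraries labelled RNF2 shRNA2 and 21.9 and 22.7 with Scramble. Here the libraries with low RNF2 were also the low ones, and those labelled RNF2 shRNA2 had the values of Scramble (log2 0.90, SE 0.064, edgeR adjusted p = 8.2e-12). PCGF5 stood at 43.5 and 44.6 CPM with RNF2 shRNA1, 27.8 and 30.4 under the RNF2 shRNA2 label and 42.8 and 41.6 with Scramble and was lower (log2 -0.59, SE 0.053, edgeR adjusted p = 6.4e-10), as was PCGF3 (log2 -0.24, SE 0.043, edgeR adjusted p = 2.4e-05). PCGF1 was not called (log2 0.01, 95% interval -0.13 to 0.15, edgeR adjusted p = 0.93). PCGF2 matched no identifier and is not analysed here.

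Of 38 PRC1 genes tested, 22 were higher and 9 lower, with a median log2 of 0.21. Over all genes 29.9% were called higher and 29.2% lower, with a median of 0.01. Most listed genes are protein-coding, and of 13542 such genes 69.1% were called, 4834 higher and 4520 lower. A list called at about that share does not stand out by its number of calls. Variant-complex subunits were among those higher: L3MBTL2, which reads methylated histones, stood at 35.4 and 34.2 CPM with RNF2 shRNA1, 57.5 and 59.98 in the libraries labelled RNF2 shRNA2 and 56.1 and 53.8 with Scramble (log2 0.76, SE 0.044, edgeR adjusted p = 1.7e-13). BCOR, the corepressor of the PCGF1 complex, stood at 69.5 and 67.8 CPM with RNF2 shRNA1, 99.2 and 105 under the RNF2 shRNA2 label and 105 and 106 with Scramble (log2 0.57). For both genes RNF2 shRNA1 was the group away from Scramble. CBX8, a reader of methylated histone H3, was higher than in both other groups at 4.11 and 3.91 CPM with RNF2 shRNA1, 10.6 and 10.04 under the RNF2 shRNA2 label and 6.57 and 6.84 with Scramble (log2 1.36, SE 0.096, edgeR adjusted p = 7.4e-12). On the lower side stood the canonical subunits PHC1 and PHC3 (log2 -0.61 and -0.50). PHC3 stood apart from Scramble with RNF2 shRNA1 (33.5 and 33.9 against 24.7 and 24.2 CPM), PHC1 in the libraries labelled RNF2 shRNA2 (7.96 and 7.14 against 10.6 and 10.6). Among 12 PRC2 genes, whose products place the mark that canonical PRC1 reads, 3 were higher and 6 lower (75% called). The methyltransferase EZH2 stood at 61.3 and 59.7 CPM with RNF2 shRNA1, 79.9 and 80.6 under the RNF2 shRNA2 label and 75.9 and 75.3 with Scramble (log2 0.41). Its paralogue EZH1 stood at 29.8 and 28.7 CPM with RNF2 shRNA1, 20.4 and 18.6 under the RNF2 shRNA2 label and 18.3 and 17.8 with Scramble (log2 -0.59). RNF2 shRNA1 was the group away from Scramble in both, low for EZH2 and high for EZH1. The accessory subunit PHF1 was lower too, at 25.7 and 24.9 CPM with RNF2 shRNA1, 12.1 and 13.8 under the RNF2 shRNA2 label and 13.4 and 13.2 with Scramble (log2 -0.96). The dot plot of levels shows how the RING, PCGF and leading genes fell by library.

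**Figure D1:**
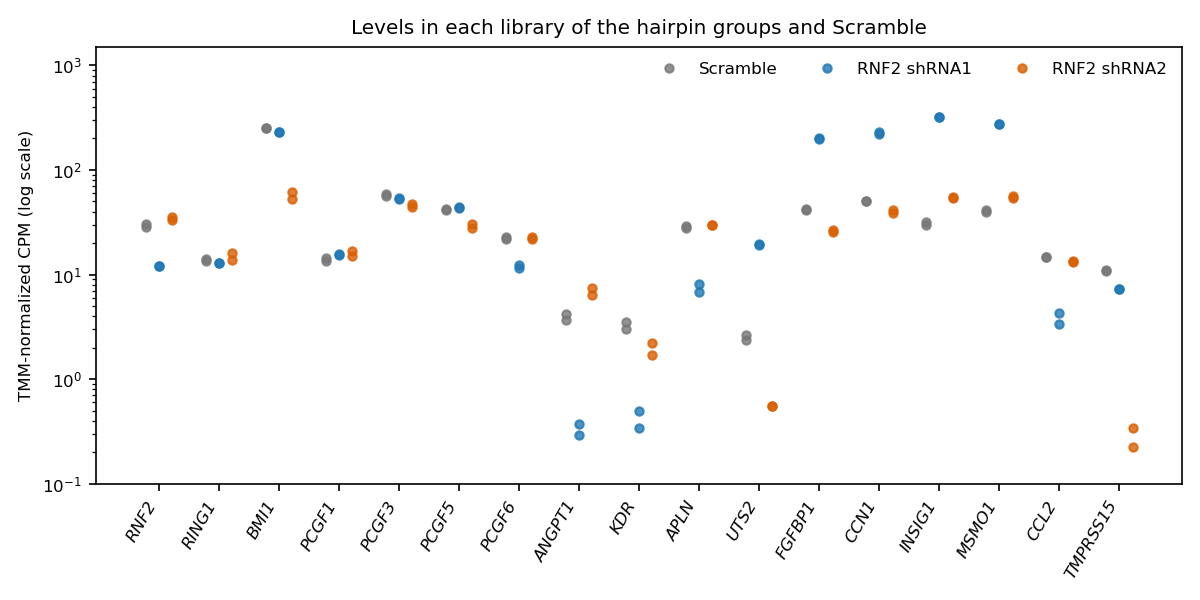
TMM-normalized CPM on a log axis for 17 genes; each dot is 1 library of Scramble (grey), RNF2 shRNA1 (blue) or the libraries labelled RNF2 shRNA2 (orange), 2 per group. RNF2 and BMI1 are reduced in different groups, and UTS2 and ANGPT1 lie on opposite sides of Scramble in the 2 hairpin groups.

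The 2 hairpin groups differed at most genes tested. By edgeR 10935 genes (59.2%) were called, 5534 higher (29.9%) and 5401 lower (29.2%). Past 2-fold stood 893 higher (4.83%) and 1181 lower genes (6.39%), and past 4-fold there were 231 and 269. Against Scramble, which both comparisons share, RNF2 shRNA1 had 10112 calls (54.7%) and the libraries labelled RNF2 shRNA2 7772 (42.1%). Past 2-fold these were 801 higher (4.33%) and 782 lower (4.23%) for RNF2 shRNA1, and 305 higher (1.65%) and 594 lower (3.21%) for the libraries labelled RNF2 shRNA2. Libraries of the groups did not overlap at 14273 genes (77.2%). Both Scramble libraries lay above all 4 hairpin libraries at 96 of the 893 higher genes and 98 of the 1181 lower genes, and below all 4 at 15 and 104. At the remaining 782 and 979 the Scramble libraries were neither both above nor both below all 4 hairpin libraries. With the nearly alike libraries summed within Scramble, within RNF2 shRNA1 and within GW-516 to 1 sample each, 8839 genes were called, 8786 of them shared with the 10935.

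**Figure D2:**
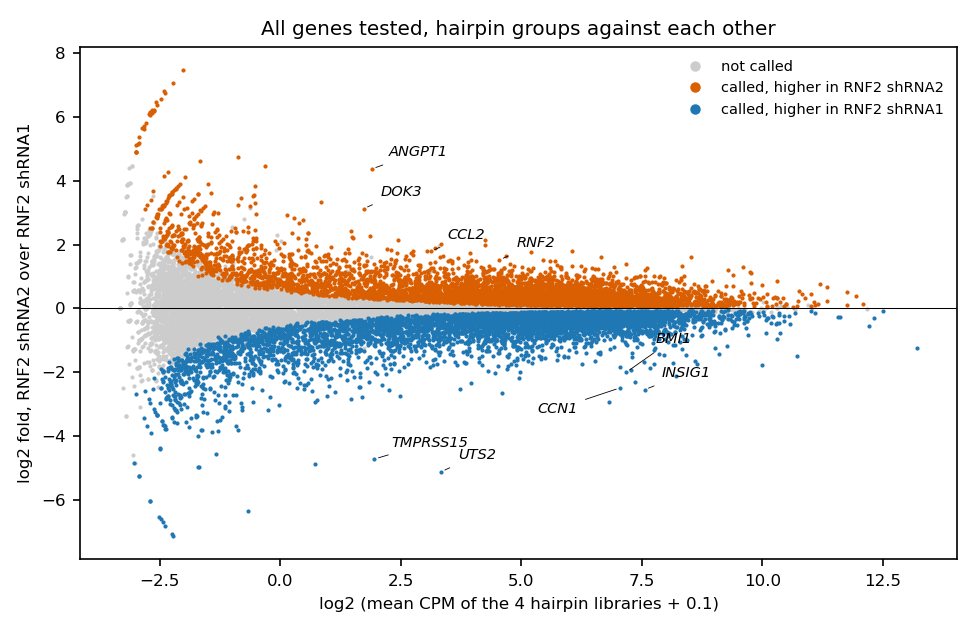
Each dot is 1 of the 18478 genes tested, placed by its mean level over the 4 hairpin libraries (log2 of CPM plus a pseudocount of 0.1) and its log2 fold between the groups; orange and blue genes were called higher and lower under the RNF2 shRNA2 label, grey genes were not called. The arcs at low levels are genes with 0 counts in 1 group, whose fitted folds depend on the prior count.

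Among the 15 largest decreases of named genes at a mean of at least 5 CPM in 1 hairpin group were several genes for secreted peptides and matrix proteins. UTS2 (ENSG00000049247.9 at 7903143 to 7913572 on chromosome 1, minus strand of GRCh37) encodes urotensin II, a vasoactive peptide, and stood at 19.5 and 19.3 CPM with RNF2 shRNA1, 0.558 and 0.5504 in the libraries labelled RNF2 shRNA2 and 2.36 and 2.63 with Scramble. Scramble lay between the groups, and no library of 1 group reached another (log2 -5.13, SE 0.14, edgeR adjusted p = 5.4e-20). FGFBP1, a carrier that releases fibroblast growth factors from the matrix, stood at 196 and 201 CPM with RNF2 shRNA1, 26.4 and 25.5 in the libraries labelled RNF2 shRNA2 and 41.8 and 41.9 with Scramble, 7.66-fold lower (log2 -2.94, SE 0.04, edgeR adjusted p = 4.4e-25). The difference lay mostly in RNF2 shRNA1, in which both libraries were more than 4-fold above Scramble. EFEMP2, an elastic fibre protein also called fibulin-4, stood at 9.11 and 9.93 CPM with RNF2 shRNA1, 1.46 and 1.37 under the RNF2 shRNA2 label and 3.47 and 3.74 with Scramble, 6.75-fold lower (log2 -2.75, SE 0.12, edgeR adjusted p = 6.4e-16). NTS, the precursor of the peptide neurotensin, stood at 6.53 and 5.11 CPM with RNF2 shRNA1, 0.887 and 1.399 under the RNF2 shRNA2 label and 2.58 and 2.43 with Scramble and was 4.94-fold lower, with Scramble between the groups for both genes. CCN1, a matricellular protein, stood at 221 and 229 CPM with RNF2 shRNA1, 41.01 and 38.98 under the RNF2 shRNA2 label and 50.8 and 50.6 with Scramble (log2 -2.49, SE 0.038, edgeR adjusted p = 1.5e-24).

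TMPRSS15 (ENSG00000154646.4 at 19641433 to 19858197 on chromosome 21, minus strand of GRCh37), the gene of enteropeptidase, the protease that activates trypsinogen, behaved otherwise. It stood at 7.31 and 7.19 CPM with RNF2 shRNA1, 0.343 and 0.224 in the libraries labelled RNF2 shRNA2 and 10.997 and 10.9 with Scramble, so that RNF2 shRNA1 lay moderately below Scramble and the libraries labelled RNF2 shRNA2 lay far below both (26.5-fold, log2 -4.73, SE 0.18, edgeR adjusted p = 5.3e-17). PTPRT, a receptor tyrosine phosphatase, was lowest in the same libraries at 5.28 and 4.86 CPM with RNF2 shRNA1, 0.658 and 1.11 under the RNF2 shRNA2 label and 10.6 and 11.4 with Scramble (5.51-fold, log2 -2.46, SE 0.16, edgeR adjusted p = 2.4e-12). CIDEC, a lipid droplet protein, stood at 23.1 and 21.8 CPM with RNF2 shRNA1, 4.06 and 3.74 under the RNF2 shRNA2 label and 9.39 and 10.3 with Scramble, 5.78-fold lower. TNFAIP8L1 stood at 25.8 and 25.4 CPM with RNF2 shRNA1, 5.33 and 4.78 under the RNF2 shRNA2 label and 12.6 and 13.2 with Scramble, 5.09-fold lower. Scramble lay in the middle for both genes. ZC3H6, a zinc finger gene, and GUCA1B, known as a photoreceptor activator of guanylate cyclase, were 6.32-fold and 5.95-fold lower. INSIG1 and MSMO1 of the sterol pathway, TMEM178A and the intronic transcript ALMS1-IT1 completed the 15, with folds from 4.97 to 5.86.

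Over all genes called higher by at least 2-fold the largest log2 was 7.47. Among named genes at a mean of at least 5 CPM in 1 hairpin group, the 15 largest increases were led by ANGPT1 (ENSG00000154188.5 at 108261721 to 108510283 on chromosome 8, minus strand of GRCh37), the angiopoietin that activates the endothelial receptor TEK. It stood at 0.293 and 0.374 CPM with RNF2 shRNA1, 6.32 and 7.5004 in the libraries labelled RNF2 shRNA2 and 3.66 and 4.17 with Scramble, more than 10-fold below Scramble with the first hairpin and above it with the second (log2 4.38, SE 0.18, edgeR adjusted p = 1.8e-16). DOK3, an adaptor that binds activated tyrosine kinases, stood at 0.675 and 0.639 CPM with RNF2 shRNA1, 5.61 and 5.93 under the RNF2 shRNA2 label and 3.99 and 4.42 with Scramble, 8.77-fold higher (log2 3.13, SE 0.16, edgeR adjusted p = 1.1e-14). MAP2K6, a kinase that activates p38, stood at 0.998 and 1.45 CPM with RNF2 shRNA1, 5.65 and 5.99 under the RNF2 shRNA2 label and 4.51 and 5.08 with Scramble, 4.78-fold higher (log2 2.26, SE 0.16, edgeR adjusted p = 4.3e-12). In all 3 genes the RNF2 shRNA1 libraries were the low ones. FLVCR2, a membrane transporter, and DAGLA, a lipase that makes an endocannabinoid, were 4.42-fold and 4.02-fold higher. UTP14A, a gene of ribosome assembly on the X chromosome, stood at 28.3 and 30.96 CPM with RNF2 shRNA1, 105 and 100.3 under the RNF2 shRNA2 label and 67.95 and 69.6 with Scramble (3.46-fold, log2 1.79, SE 0.046, edgeR adjusted p = 3.3e-20). DHRS2, a dehydrogenase gene, differed in placement: it stood at 2.85 and 3.103 CPM with RNF2 shRNA1, 10.02 and 9.95 under the RNF2 shRNA2 label and 3.04 and 2.71 with Scramble, so that only the libraries labelled RNF2 shRNA2 lay away from Scramble (log2 1.75, SE 0.11, edgeR adjusted p = 3.9e-13). PRR22, DNAH7, DUBR, LINC00326, MAP6D1, FAM81A, APLN and CCL2 made up the rest, with folds from 3.41 to 4.399.

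Angiogenic ligands and receptors went both ways. Of 37 tested, 10 were higher and 15 lower (67.6% called, against 69.1% of protein-coding genes), with a median log2 of -0.21. Among ligands, APLN, which signals through the apelin receptor, stood at 8.08 and 6.84 CPM with RNF2 shRNA1, 29.97 and 29.9 in the libraries labelled RNF2 shRNA2 and 29.1 and 28.04 with Scramble (4.01-fold higher, log2 2.00, SE 0.068, edgeR adjusted p = 6.9e-18). ANGPTL4, a secreted lipase inhibitor, stood at 6.53 and 6.33 CPM with RNF2 shRNA1, 18.4 and 20.05 under the RNF2 shRNA2 label and 35.6 and 37.9 with Scramble (log2 1.59, SE 0.07, edgeR adjusted p = 2.7e-14), below Scramble in both hairpin groups. THBS1, an inhibitor of vessel growth, stood at 20.5 and 21.8 CPM with RNF2 shRNA1, 10.6 and 10.3 under the RNF2 shRNA2 label and 10.9 and 10.5 with Scramble and was lower (log2 -1.02), with the libraries labelled RNF2 shRNA2 at the level of Scramble. VEGFA, the main endothelial growth factor, differed little at 112 and 112 CPM with RNF2 shRNA1, 103 and 101 under the RNF2 shRNA2 label and 74.97 and 75.7 with Scramble (log2 -0.14, SE 0.033, edgeR adjusted p = 6.8e-04) and was above Scramble in both groups. Among receptors, KDR, which binds VEGFA, stood at 0.499 and 0.343 CPM with RNF2 shRNA1, 1.69 and 2.21 under the RNF2 shRNA2 label and 3.503 and 3.04 with Scramble (log2 2.22, SE 0.21, edgeR adjusted p = 1.4e-09). TEK, the receptor of ANGPT1, was not called at 0.9095 and 0.904 CPM with RNF2 shRNA1, 0.615 and 0.718 under the RNF2 shRNA2 label and 0.684 and 0.943 with Scramble (log2 -0.43, 95% interval -0.91 to 0.05, edgeR adjusted p = 0.12). KDR and TEK are endothelial genes, and the endothelial markers VWF and CDH5 were at or below 0.112 CPM in all 4 hairpin libraries.

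Genes of DNA replication were higher almost without exception. Of 46 tested genes of DNA replication and the G1/S transition, 44 were higher and none lower by edgeR, with a median log2 of 0.54. None was lower at an unadjusted p below 0.05 either, nor by DESeq2 or limma-voom, and E2F8 and RFC5 were not called. With pairs summed 40 were higher. POLA1, the catalytic subunit of the polymerase that starts each strand, stood at 32.01 and 32.2 CPM in the RNF2 shRNA1 libraries, 73.2 and 67.8 in the libraries labelled RNF2 shRNA2 and 66.8 and 66.5 in Scramble (log2 1.13, SE 0.048, edgeR adjusted p = 4.9e-16). MCM3, a subunit of the replicative helicase, stood at 173 and 176 CPM with RNF2 shRNA1, 301 and 297 under the RNF2 shRNA2 label and 311 and 307 with Scramble (log2 0.77, SE 0.028, edgeR adjusted p = 1.9e-17). GINS2, which joins that helicase, stood at 25.2 and 25.1 CPM with RNF2 shRNA1, 46.9 and 46.2 under the RNF2 shRNA2 label and 48.3 and 46.6 with Scramble (log2 0.89, SE 0.046, edgeR adjusted p = 2.0e-14). In each of the 3 genes the RNF2 shRNA1 libraries were low and the libraries labelled RNF2 shRNA2 lay close to Scramble. CCNE1, the cyclin that drives entry into S phase, stood at 2.49 and 2.93 CPM with RNF2 shRNA1, 6.09 and 6.52 under the RNF2 shRNA2 label and 6.22 and 6.78 with Scramble (log2 1.22, SE 0.11, edgeR adjusted p = 1.2e-09). CCND1, the cyclin of early G1, was placed otherwise at 441 and 435 CPM with RNF2 shRNA1, 589 and 591 under the RNF2 shRNA2 label and 441 and 434 with Scramble: RNF2 shRNA1 lay at the level of Scramble and the libraries labelled RNF2 shRNA2 above both (log2 0.43, SE 0.027, edgeR adjusted p = 8.6e-13). PCNA, the polymerase clamp, was higher (log2 0.37) but below Scramble in both groups, at 114 and 109.8 CPM with RNF2 shRNA1, 140.0 and 149.6 under the RNF2 shRNA2 label and 184 and 191 with Scramble. Against the shared Scramble libraries 44 of the 46 genes were lower with RNF2 shRNA1 (28.6% of all genes), and 20 were lower and 3 higher in the libraries labelled RNF2 shRNA2 (21% and 21.1%).

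Mitotic genes leaned the other way. Of 44 tested, 35 were lower and 4 higher, with a median log2 of -0.35. AURKA, the spindle pole kinase, stood at 258 and 262 CPM in the RNF2 shRNA1 libraries, 142 and 142 in the libraries labelled RNF2 shRNA2 and 197 and 196 in Scramble (log2 -0.87, SE 0.029, edgeR adjusted p = 3.3e-18). NUSAP1, which bundles spindle microtubules, stood at 159.9 and 157 CPM with RNF2 shRNA1, 87.01 and 83.4 under the RNF2 shRNA2 label and 128 and 127 with Scramble (log2 -0.89, SE 0.033, edgeR adjusted p = 3.4e-17). KIF2C, a kinesin that takes microtubules apart, stood at 156 and 157 CPM with RNF2 shRNA1, 88.02 and 86.3 under the RNF2 shRNA2 label and 115 and 112 with Scramble (log2 -0.84, SE 0.034, edgeR adjusted p = 1.8e-16). For these 3 genes Scramble lay between the groups, with RNF2 shRNA1 above it and the libraries labelled RNF2 shRNA2 below. The mitotic driver CDK1 stood at 325 and 322 CPM with RNF2 shRNA1, 210.1 and 222 under the RNF2 shRNA2 label and 284 and 284 with Scramble (log2 -0.58), and its B-type cyclins CCNB2 and CCNB1 were lower by less (log2 -0.45 and -0.19). The 4 higher genes were ESPL1, the protease separase (log2 0.73), the mitotic transcription factor FOXM1 (0.26), MAD2L1 (0.19) and BIRC5 (0.07), the last not called when any 1 hairpin library was left out (log2 0.04 to 0.08) or by DESeq2. AURKB, PLK1 and 3 others were not called. Against Scramble, with the control libraries shared, 31 of the 44 genes were higher (26.2% of all genes) and 7 lower with RNF2 shRNA1, and 1 was higher and 27 lower in the libraries labelled RNF2 shRNA2. In bulk libraries such as these, fewer cells in a phase and less RNA per cell cannot be told apart.

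**Figure D3:**
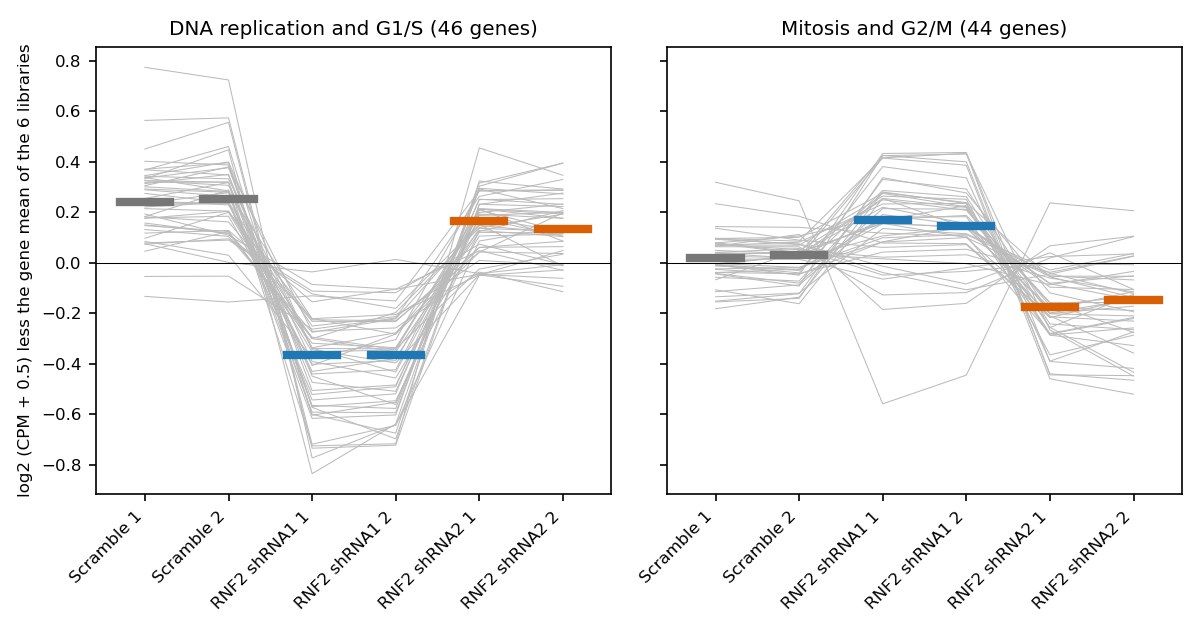
Each grey line is 1 gene, drawn as log2 of CPM plus 0.5 less its mean over the 6 libraries, and the thick bars are the medians in each library of Scramble, RNF2 shRNA1 and the libraries labelled RNF2 shRNA2. Replication genes (46, left) have medians of -0.37 in both RNF2 shRNA1 libraries against 0.16 and 0.13 in the libraries labelled RNF2 shRNA2, while mitotic genes (44, right) have 0.17 and 0.15 against -0.17 and -0.15.

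Promoter sequences were read for both lists because their genes moved as blocks. In the table used here (RefSeq, GRCh38.p14) 38 of the 46 replication genes and 37 of the 44 mitotic genes had at least 1 window, taken as the 250 bases before the transcript start. The E2F motif TTTNNCGC, searched on both strands, stood in 16 of the 38 (42.1%), all 16 of them called higher, and in 7.15% of all 27305 genes in the table. The motif TTTGAA, known as the cell cycle genes homology region, was searched on both strands and stood in 22 of the 37 mitotic genes (59.5%), 17 of them called lower and 1 higher, against 16.1% of all genes. The motifs share the letters TTT and were searched separately, and a match describes these letters only, not binding. Of the whole lists, with or without a motif, 44 of 46 replication genes were higher and 35 of 44 mitotic genes lower. The directions among genes with a motif were thus largely set by the lists. They cannot show that a motif goes with the change. Shown are MCM3 at chr6:52284743-52284992 (reverse strand), GINS2 at chr16:85688955-85689204 (reverse strand) and POLA1 at chrX:24693668-24693917 (forward strand), with the E2F motif in capitals, and CCNB2 at chr15:59104896-59105145 (forward strand) and DLGAP5 at chr14:55191586-55191835 (reverse strand), with TTTGAA or its reverse complement in capitals.
MCM3: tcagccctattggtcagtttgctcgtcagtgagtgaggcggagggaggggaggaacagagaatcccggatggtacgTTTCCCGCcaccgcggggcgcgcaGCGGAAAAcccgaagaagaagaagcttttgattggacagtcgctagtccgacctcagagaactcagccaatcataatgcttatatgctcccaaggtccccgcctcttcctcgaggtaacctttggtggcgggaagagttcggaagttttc
GINS2: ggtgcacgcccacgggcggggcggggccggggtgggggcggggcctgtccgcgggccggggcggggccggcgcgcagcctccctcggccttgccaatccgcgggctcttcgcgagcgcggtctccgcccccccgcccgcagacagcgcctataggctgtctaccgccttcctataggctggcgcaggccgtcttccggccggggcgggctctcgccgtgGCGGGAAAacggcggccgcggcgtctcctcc
POLA1: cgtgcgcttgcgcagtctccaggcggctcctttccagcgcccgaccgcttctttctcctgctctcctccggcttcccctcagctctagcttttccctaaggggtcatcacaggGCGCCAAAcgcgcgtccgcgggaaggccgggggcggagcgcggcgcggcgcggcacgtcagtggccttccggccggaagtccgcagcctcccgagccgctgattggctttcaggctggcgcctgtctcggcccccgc
CCNB2: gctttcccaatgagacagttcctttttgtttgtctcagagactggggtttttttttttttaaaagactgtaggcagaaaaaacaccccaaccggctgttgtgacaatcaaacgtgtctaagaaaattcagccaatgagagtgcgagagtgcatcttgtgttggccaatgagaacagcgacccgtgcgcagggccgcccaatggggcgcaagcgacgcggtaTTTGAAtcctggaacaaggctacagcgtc
DLGAP5: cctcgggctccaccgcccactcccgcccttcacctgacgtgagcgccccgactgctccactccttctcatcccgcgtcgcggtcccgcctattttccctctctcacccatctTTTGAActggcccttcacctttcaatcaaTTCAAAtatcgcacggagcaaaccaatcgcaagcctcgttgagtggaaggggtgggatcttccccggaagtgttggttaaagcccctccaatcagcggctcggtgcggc
The E2F letters of GINS2 and the TTTGAA of CCNB2 each end 23 bases before the end of the window. DLGAP5, a spindle protein gene with 2 matches, stood at 205 and 199 CPM with RNF2 shRNA1, 120.0 and 130.0 under the RNF2 shRNA2 label and 156 and 153 with Scramble (log2 -0.69).

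Inhibitors of the cell cycle and targets of the p53 type were lower in 23 and higher in 10 of 38 genes (median log2 -0.28). CDKN1B, the inhibitor p27, stood at 81.3 and 78.01 CPM with RNF2 shRNA1, 40.9 and 43.4 in the libraries labelled RNF2 shRNA2 and 48.4 and 48.9 with Scramble (log2 -0.92, SE 0.042, edgeR adjusted p = 2.4e-15). CDKN2B, the inhibitor p15, stood at 130.4 and 126 CPM with RNF2 shRNA1, 96.6 and 89.9 under the RNF2 shRNA2 label and 65.7 and 64.7 with Scramble (log2 -0.46, SE 0.037, edgeR adjusted p = 8.8e-11). PMAIP1, a pro-apoptotic BH3 protein, stood at 461 and 454 CPM with RNF2 shRNA1, 179 and 198 under the RNF2 shRNA2 label and 149.7 and 149 with Scramble (log2 -1.28). BBC3, of the same class, stood at 6.15 and 7.11 CPM with RNF2 shRNA1, 1.92 and 1.91 under the RNF2 shRNA2 label and 3.24 and 2.86 with Scramble (log2 -1.79). In all 4 genes RNF2 shRNA1 was the highest group. CDKN1A, the inhibitor p21, was not called (log2 0.02, 95% interval -0.10 to 0.14).

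Sterol synthesis was the list with the lowest median. Of 29 genes of cholesterol synthesis and uptake, 24 were lower and 3 higher, with a median log2 of -0.96, and 24 were also lower with pairs summed and without either library labelled RNF2 shRNA2. HMGCS1, which makes the precursor of mevalonate, stood at 474 and 480.4 CPM in the RNF2 shRNA1 libraries, 109.8 and 111 in the libraries labelled RNF2 shRNA2 and 75.2 and 76.2 in Scramble (log2 -2.11, SE 0.032, edgeR adjusted p = 1.5e-24). SQLE, the squalene epoxidase gene, stood at 437 and 437 CPM with RNF2 shRNA1, 128 and 136 under the RNF2 shRNA2 label and 118 and 115 with Scramble (log2 -1.73, SE 0.032, edgeR adjusted p = 5.4e-23). SREBF2, the transcription factor of the pathway, stood at 289 and 292 CPM with RNF2 shRNA1, 139 and 134 under the RNF2 shRNA2 label and 132 and 130.3 with Scramble (log2 -1.09, SE 0.033, edgeR adjusted p = 6.1e-19). RNF2 shRNA1 was far above Scramble in all 3, and the libraries labelled RNF2 shRNA2 lay near Scramble or moderately above it. TM7SF2, a sterol reductase gene, was placed otherwise at 9.54 and 10.9 CPM with RNF2 shRNA1, 4.66 and 5.02 under the RNF2 shRNA2 label and 11.1 and 11.1 with Scramble, lower than Scramble only in the libraries labelled RNF2 shRNA2 (log2 -1.07). ABCA1, which exports cholesterol, had the opposite difference at 3.62 and 2.85 CPM with RNF2 shRNA1, 9.14 and 9.33 under the RNF2 shRNA2 label and 13.7 and 12.6 with Scramble (log2 1.51, SE 0.093, edgeR adjusted p = 5.4e-13). Its list, cholesterol export and targets of the receptor LXR, had 3 higher and 2 lower of 8 tested (median log2 -0.15). ABCA1 therefore does not stand for that list. Of 20 genes of fatty acid synthesis 15 were lower and 2 higher (median log2 -0.34), with 1 higher without replicate 2 of either group. The desaturase gene SCD stood at 725 and 720.3 CPM with RNF2 shRNA1, 302 and 311 under the RNF2 shRNA2 label and 334 and 337 with Scramble (log2 -1.24, SE 0.028, edgeR adjusted p = 1.8e-21).

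The stress programme of ATF4, the transcription factor of amino acid shortage, was lower in 29 and higher in 6 of 39 genes (median log2 -0.47). CHAC1, which degrades glutathione, stood at 31.2 and 30.8 CPM with RNF2 shRNA1, 11.5 and 10.6 in the libraries labelled RNF2 shRNA2 and 6.75 and 6.26 with Scramble (log2 -1.49, SE 0.081, edgeR adjusted p = 1.8e-13). NUPR1, a stress-induced nuclear protein, stood at 82.97 and 76.4 CPM with RNF2 shRNA1, 29.7 and 28.5 under the RNF2 shRNA2 label and 20.1 and 21.9 with Scramble (log2 -1.46). DDIT4, an inhibitor of mTOR, stood at 233 and 240.2 CPM with RNF2 shRNA1, 103 and 100.4 under the RNF2 shRNA2 label and 118 and 118 with Scramble (log2 -1.22). For DDIT4 the libraries labelled RNF2 shRNA2 lay below Scramble, and for CHAC1 and NUPR1 above it. ATF5, a related transcription factor, was higher at 48.7 and 48.5 CPM with RNF2 shRNA1, 97.6 and 98.3 under the RNF2 shRNA2 label and 71.7 and 74.99 with Scramble (log2 1.01). Of 24 chaperones of the endoplasmic reticulum 14 were lower and 8 higher, 3 to 5 higher when 1 library was left out. HSPA5, the main chaperone there, stood at 1657 and 1679 CPM with RNF2 shRNA1, 974 and 980.0 under the RNF2 shRNA2 label and 1061 and 1067 with Scramble (log2 -0.77, SE 0.023, edgeR adjusted p = 4.4e-19). PDIA4, a disulfide isomerase, stood at 399 and 401 CPM with RNF2 shRNA1, 175 and 188 under the RNF2 shRNA2 label and 391 and 393 with Scramble, reduced only in the libraries labelled RNF2 shRNA2 (log2 -1.14, SE 0.031, edgeR adjusted p = 9.6e-20).

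The amino acid response element TGATGNAAN, the site at which ATF4 is known to act, was searched on both strands of the same 250-base windows. It stood in 7 of 32 listed stress genes with a window (21.9%), all 7 called lower, and in 3.87% of all genes. Of the whole list 29 of 39 were lower, so 7 genes cannot show that the motif goes with the direction. The sterol response element TCACNCCAC stood in 1 of 23 sterol genes (4.35%), SREBF2, against 1.09% of all genes. Shown are CHAC1 at chr15:40953221-40953470 (forward strand), ASNS, the asparagine synthetase gene, at chr7:97872409-97872658 (reverse strand) and SREBF2 at chr22:41832855-41833104 (forward strand), with the motif on either strand in capitals.
CHAC1: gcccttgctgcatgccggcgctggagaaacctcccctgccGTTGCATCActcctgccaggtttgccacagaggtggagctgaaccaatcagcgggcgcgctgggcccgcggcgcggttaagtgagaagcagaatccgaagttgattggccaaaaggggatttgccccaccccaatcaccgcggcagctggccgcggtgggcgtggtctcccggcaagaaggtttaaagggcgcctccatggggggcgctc
ASNS: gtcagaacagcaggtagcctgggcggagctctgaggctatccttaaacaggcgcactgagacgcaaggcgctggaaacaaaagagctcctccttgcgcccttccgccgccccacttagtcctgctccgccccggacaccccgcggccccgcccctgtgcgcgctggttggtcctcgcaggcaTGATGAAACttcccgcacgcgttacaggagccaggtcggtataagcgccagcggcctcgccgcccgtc
SREBF2: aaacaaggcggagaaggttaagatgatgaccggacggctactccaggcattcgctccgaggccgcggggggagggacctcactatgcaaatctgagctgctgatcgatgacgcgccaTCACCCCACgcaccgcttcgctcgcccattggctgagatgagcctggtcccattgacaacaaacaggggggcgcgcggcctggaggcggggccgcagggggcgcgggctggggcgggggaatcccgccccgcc
These windows are of GRCh38.p14 and were not compared with the GRCh37 coordinates of the counts.

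Glycolysis and hypoxia genes were higher in 29 and lower in 4 of 43 (median log2 0.38). CA9, the hypoxia-induced carbonic anhydrase, stood at 53.7 and 54.8 CPM with RNF2 shRNA1, 135 and 123 in the libraries labelled RNF2 shRNA2 and 113 and 111 with Scramble (log2 1.25, SE 0.041, edgeR adjusted p = 1.0e-17). PFKFB4, a regulator of glycolytic flux, stood at 12.1 and 13.2 CPM with RNF2 shRNA1, 29.2 and 29.9 under the RNF2 shRNA2 label and 33.6 and 32.9 with Scramble (log2 1.23). SLC2A1, a glucose transporter, stood at 59.1 and 61.03 CPM with RNF2 shRNA1, 117 and 113 under the RNF2 shRNA2 label and 119 and 121 with Scramble (log2 0.93). RNF2 shRNA1 was the low group in these 3 genes, with the libraries labelled RNF2 shRNA2 close to Scramble. The lactate exporter SLC16A3 stood at 127 and 123 CPM with RNF2 shRNA1, 260.1 and 247 under the RNF2 shRNA2 label and 163 and 161 with Scramble (log2 1.02), above Scramble in the libraries labelled RNF2 shRNA2. ALDOC, an aldolase, went the other way at 41.8 and 42.4 CPM with RNF2 shRNA1, 13.3 and 11.97 under the RNF2 shRNA2 label and 27.8 and 27.9 with Scramble (log2 -1.74, SE 0.055, edgeR adjusted p = 1.5e-18). HIF1A, the hypoxia factor itself, was not called (log2 -0.01), but was lower without replicate 2 labelled RNF2 shRNA2 (log2 -0.08, edgeR adjusted p = 0.016). EPAS1, its paralogue, was higher at 97.01 and 96.3 CPM with RNF2 shRNA1, 139 and 142 under the RNF2 shRNA2 label and 95.9 and 93.002 with Scramble (log2 0.54, SE 0.031, edgeR adjusted p = 2.2e-13).

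Heat shock genes were mostly higher, while metallothionein genes could be read only singly. MT2A, a metallothionein that binds zinc and copper, stood at 71.3 and 73.5 CPM with RNF2 shRNA1, 183 and 131 in the libraries labelled RNF2 shRNA2 and 159 and 156 with Scramble (log2 1.11, SE 0.16, edgeR adjusted p = 0.0018). MT2A was not called in the fit of the 4 hairpin libraries alone or with pairs summed, and the libraries labelled RNF2 shRNA2 differed from each other there more than the other pairs did. MT1X stood at 2.41 and 2.9001 CPM with RNF2 shRNA1, 7.95 and 7.099 under the RNF2 shRNA2 label and 7.61 and 7.28 with Scramble (2.83-fold, edgeR adjusted p = 5.8e-12). The zinc transporters SLC30A1 and SLC39A8 were higher (log2 0.74 and 0.78), and their regulator MTF1 was not called (log2 -0.003). MT1F, the only other listed metallothionein gene tested, lay at or below 0.143 CPM in the 6 hairpin and Scramble libraries, and its call was lost under several alternatives, among them a replicate block, pairs summed and DESeq2. No count is given over the family, since most of its listed genes were too low to test. Metallothionein genes are near-identical copies, so single values are uncertain. Of 23 heat shock genes 15 were higher and 4 lower (median log2 0.20). HSPB8, a small heat shock protein, stood at 15.9 and 16.8 CPM with RNF2 shRNA1, 40.1 and 41.1 under the RNF2 shRNA2 label and 33.3 and 33.1 with Scramble (log2 1.32, SE 0.054, edgeR adjusted p = 1.8e-16).

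Matrix genes were lower more often than higher, 23 against 10 of 44 tested (median log2 -0.18). The share called was 75%, against 69.1% of protein-coding genes. COL6A2, a collagen VI chain, stood at 35.6 and 33.9 CPM with RNF2 shRNA1, 8.24 and 8.797 in the libraries labelled RNF2 shRNA2 and 58.9 and 58.2 with Scramble (log2 -2.02, SE 0.059, edgeR adjusted p = 9.2e-19). COL6A1, its partner chain, stood at 192 and 187 CPM with RNF2 shRNA1, 92.1 and 91.7 under the RNF2 shRNA2 label and 257 and 253 with Scramble (log2 -1.05, SE 0.053, edgeR adjusted p = 7.8e-09). Both hairpin groups were below Scramble for these chains, the libraries labelled RNF2 shRNA2 furthest. NID1, a basement membrane linker, was low only in the libraries labelled RNF2 shRNA2 at 183 and 177 CPM with RNF2 shRNA1, 88.04 and 91.3 under the RNF2 shRNA2 label and 156 and 153 with Scramble (log2 -1.01, SE 0.033, edgeR adjusted p = 3.3e-18). The laminin chain LAMC1 stood at 247 and 251 CPM with RNF2 shRNA1, 141 and 142 under the RNF2 shRNA2 label and 164 and 169 with Scramble and was lower (log2 -0.82), here with RNF2 shRNA1 above the other groups. COL1A2, a collagen I chain, was higher at 145 and 149 CPM with RNF2 shRNA1, 253 and 258 under the RNF2 shRNA2 label and 253 and 248 with Scramble (log2 0.80). So was LOX, the collagen cross-linking enzyme, at 5.002 and 5.46 CPM with RNF2 shRNA1, 10.7 and 11.6 under the RNF2 shRNA2 label and 11.4 and 11.7 with Scramble (log2 1.10). For both genes the libraries labelled RNF2 shRNA2 lay at the level of Scramble. Of the fibroblast markers, DCN and LUM were at or below 0.243 CPM in the 4 hairpin libraries. COL1A1 was well expressed, at 18.8 and 19.8 CPM with RNF2 shRNA1, 15.2 and 16.7 under the RNF2 shRNA2 label and 26.3 and 27.1 with Scramble (log2 -0.27).

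The list of YAP and TEAD, the growth effectors of the Hippo pathway, was lower in 20 and higher in 7 of 33 genes (median log2 -0.29). It holds YAP1, WWTR1 and TEAD1 to TEAD4 themselves beside targets, so the counts are not of targets alone. The higher count fell with pairs summed and when any 1 hairpin library was left out. CCN2, a matricellular target, stood at 113 and 114 CPM with RNF2 shRNA1, 63.04 and 58.3 in the libraries labelled RNF2 shRNA2 and 58.1 and 59.3 with Scramble (log2 -0.91, SE 0.041, edgeR adjusted p = 1.8e-15). AXL, a receptor tyrosine kinase, stood at 17.7 and 17.8 CPM with RNF2 shRNA1, 10.1 and 10.4 under the RNF2 shRNA2 label and 12.8 and 13.9 with Scramble (log2 -0.78). YAP1 itself was not called, at 158 and 157 CPM with RNF2 shRNA1, 159 and 159 under the RNF2 shRNA2 label and 161 and 159.8 with Scramble (log2 0.02, 95% interval -0.05 to 0.08). Feedback genes of growth factor signalling were lower in 19 and higher in 13 of 41 AP-1 and MAP kinase genes. Their share called was 78.0%, against 69.1% of protein-coding genes. DUSP5, a phosphatase of ERK, stood at 210.3 and 202 CPM with RNF2 shRNA1, 56.3 and 59.96 under the RNF2 shRNA2 label and 49.6 and 50.7 with Scramble (log2 -1.83, SE 0.036, edgeR adjusted p = 2.4e-22). JUN, an AP-1 subunit, was higher at 74.3 and 69.6 CPM with RNF2 shRNA1, 130.5 and 131 under the RNF2 shRNA2 label and 77.7 and 77.4 with Scramble (log2 0.86, SE 0.05, edgeR adjusted p = 1.7e-10). ERRFI1, an inhibitor of the EGF receptor, stood at 2479 and 2513 CPM with RNF2 shRNA1, 899 and 880.1 under the RNF2 shRNA2 label and 721 and 714 with Scramble (log2 -1.49, SE 0.024, edgeR adjusted p = 4.7e-24).

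Immune genes were mixed. Of 26 chemokines and cytokines 8 were higher and 6 lower, with 5 higher without RNF2 shRNA1 replicate 2. This is 53.8% called, below the 69.1% of protein-coding genes. CCL2 (ENSG00000108691.5 at 32582304 to 32584222 on chromosome 17, plus strand of GRCh37), which draws monocytes, stood at 4.31 and 3.38 CPM with RNF2 shRNA1, 13.5 and 13.1 in the libraries labelled RNF2 shRNA2 and 14.6 and 14.7 with Scramble (log2 1.79). The neutrophil attractant CXCL1 stood at 11.4 and 11.8 CPM with RNF2 shRNA1, 22.4 and 20.1 under the RNF2 shRNA2 label and 36.7 and 36.8 with Scramble (log2 0.87). IL1B, an inflammatory cytokine, was lower at 84.98 and 89.1 CPM with RNF2 shRNA1, 30.5 and 31.8 under the RNF2 shRNA2 label and 45.7 and 48.04 with Scramble (log2 -1.48, SE 0.038, edgeR adjusted p = 3.0e-20). LIF, the leukaemia-inhibitory cytokine, was lower at 51.8 and 53.5 CPM with RNF2 shRNA1, 20.3 and 22.3 under the RNF2 shRNA2 label and 22.5 and 21.3 with Scramble (log2 -1.30). CCL2 and CXCL1 were thus lowest and IL1B and LIF highest with RNF2 shRNA1, an order not shared by the whole list. CXCL8, another neutrophil attractant, stood at 57.2 and 59.1 CPM with RNF2 shRNA1, 71.4 and 76.9 under the RNF2 shRNA2 label and 44.98 and 43.9 with Scramble (log2 0.35) and was lowest with Scramble. Of 27 NF-kB targets 9 were higher and 11 lower (74.1% called). PLAU, the urokinase protease, stood at 1555 and 1569 CPM with RNF2 shRNA1, 474 and 443 under the RNF2 shRNA2 label and 590.2 and 600.0 with Scramble (log2 -1.77, SE 0.029, edgeR adjusted p = 4.3e-24). The complement gene C3 went the other way at 2.89 and 2.85 CPM with RNF2 shRNA1, 9.55 and 8.67 under the RNF2 shRNA2 label and 14.4 and 13.9 with Scramble (log2 1.66, SE 0.083, edgeR adjusted p = 9.8e-15). Among 21 genes of MHC class I antigen presentation 14 were lower and 3 higher (median log2 -0.44). PSMB9, an immunoproteasome subunit, stood at 2.46 and 2.37 CPM with RNF2 shRNA1, 0.772 and 0.6903 under the RNF2 shRNA2 label and 3.38 and 3.47 with Scramble (log2 -1.73, SE 0.19, edgeR adjusted p = 1.8e-08). TAP1, which moves peptides into the endoplasmic reticulum, stood at 7.83 and 8.14 CPM with RNF2 shRNA1, 4.604 and 4.52 under the RNF2 shRNA2 label and 7.98 and 8.24 with Scramble (log2 -0.81). The libraries labelled RNF2 shRNA2 were lowest for both. NLRC5, an activator of the class I genes, was higher at 3.59 and 3.48 CPM with RNF2 shRNA1, 7.96 and 8.26 under the RNF2 shRNA2 label and 5.12 and 5.72 with Scramble (log2 1.20, SE 0.11, edgeR adjusted p = 1.1e-09). HLA genes are near-identical copies and their single values are uncertain. Of 39 interferon-stimulated genes 14 were higher and 17 lower (79.5% called). DDX60, an RNA helicase, stood at 245 and 245 CPM with RNF2 shRNA1, 63.1 and 65.3 under the RNF2 shRNA2 label and 85.8 and 85.98 with Scramble (log2 -1.93, SE 0.037, edgeR adjusted p = 1.2e-22).

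Developmental regulators known as Polycomb targets did not move as a block. Of 84 listed 52 passed the filter on low counts, 18 of them higher and 14 lower, with a median log2 of 0.10, and genes that passed through 1 group alone had to differ. The share called was 61.5%, against 69.1% of protein-coding genes. HOXD1, 1 of the 18, was at 0 in both RNF2 shRNA1 libraries. SOX21, a neural transcription factor, stood at 57.02 and 55.5 CPM with RNF2 shRNA1, 18.4 and 19.7 in the libraries labelled RNF2 shRNA2 and 15.4 and 16.3 with Scramble (log2 -1.56, SE 0.053, edgeR adjusted p = 7.0e-18). SOX2, of the same family, stood at 0.645 and 0.468 CPM with RNF2 shRNA1, 1.69 and 1.47 under the RNF2 shRNA2 label and 1.54 and 1.76 with Scramble (log2 1.49, SE 0.23, edgeR adjusted p = 3.2e-06). Of 22 stemness genes 9 were higher and 9 lower (81.8% called). LGR5, a Wnt-pathway stem cell receptor, stood at 1.06 and 1.34 CPM with RNF2 shRNA1, 3.17 and 3.704 under the RNF2 shRNA2 label and 4.34 and 4.59 with Scramble (log2 1.53, SE 0.17, edgeR adjusted p = 1.7e-08). ALDH1A3, a retinal dehydrogenase, stood at 1688 and 1665 CPM with RNF2 shRNA1, 855 and 872 under the RNF2 shRNA2 label and 786 and 786 with Scramble (log2 -0.96, SE 0.023, edgeR adjusted p = 1.0e-20). LGR5 and SOX2 were lowest, and ALDH1A3 and SOX21 highest, with RNF2 shRNA1. Epithelial genes were higher in 14 and lower in 19 of 41 (80.5% called). Mesenchymal genes were higher in 6 and lower in 13 of 25 (76% called). SPINT1, an inhibitor of membrane proteases, stood at 26.1 and 27.1 CPM with RNF2 shRNA1, 10.02 and 9.11 under the RNF2 shRNA2 label and 25.9 and 24.9 with Scramble (log2 -1.48, SE 0.06, edgeR adjusted p = 1.8e-16). In the strip plot each list's members lie around its median.

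**Figure D4:**
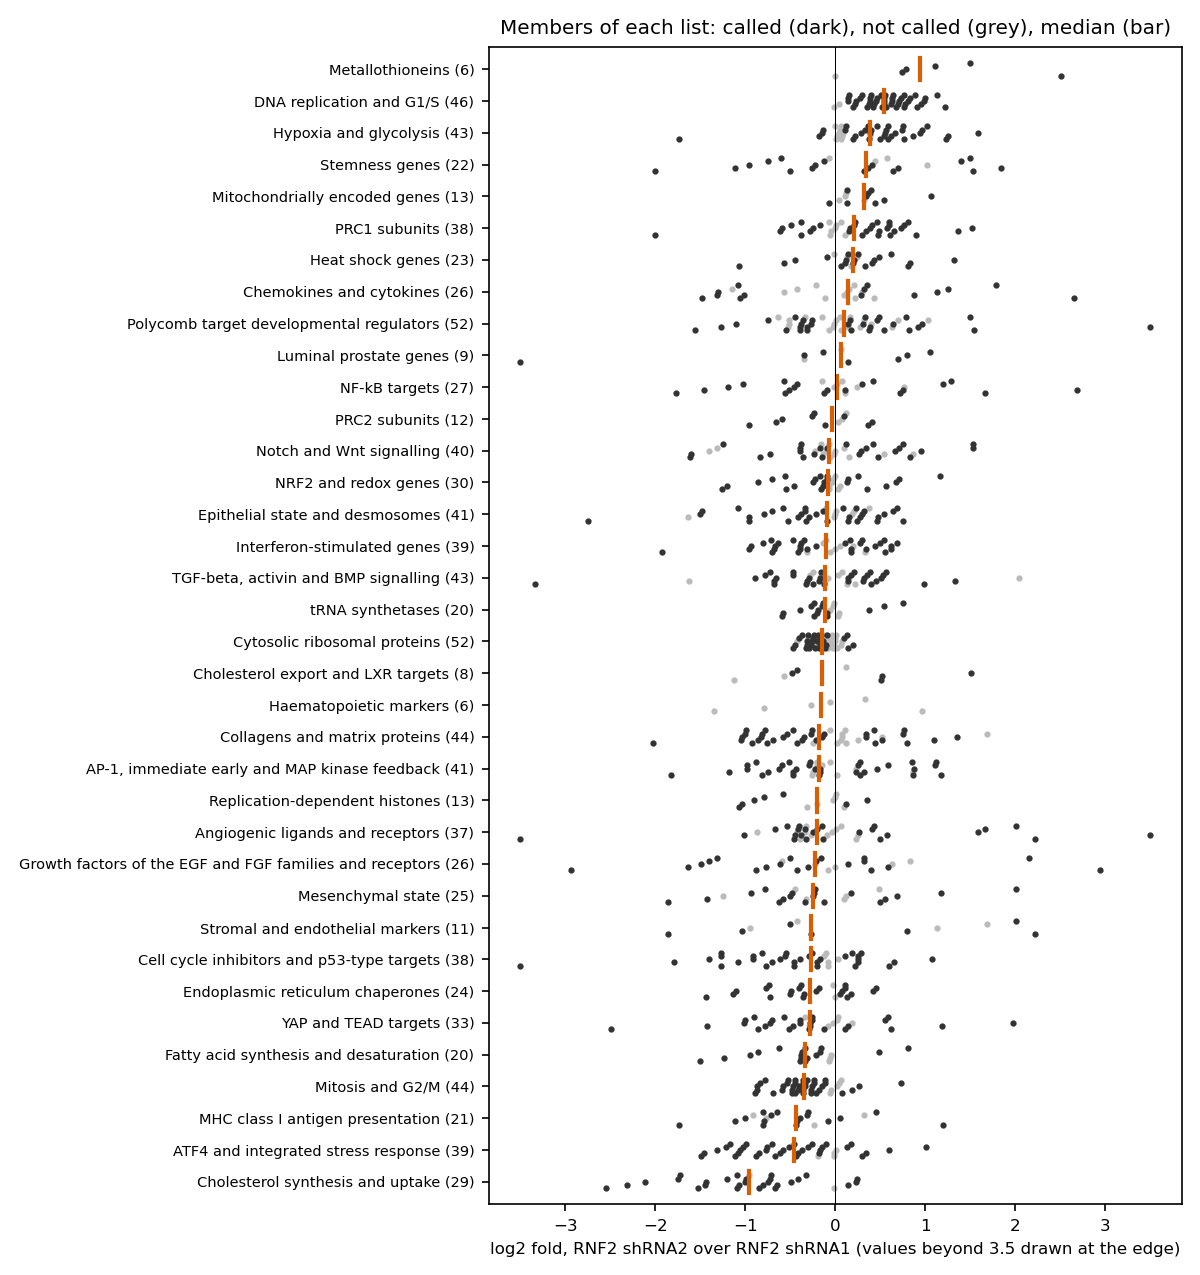
Each dot is a tested member of a list (number tested in parentheses) at its log2 fold between the hairpin groups, dark when called and grey when not, and each orange bar is the list's median; values beyond 3.5 are drawn at the edge. Replication genes lie almost wholly right of 0 (median 0.54) and sterol genes mostly left of it (median -0.96), while most other lists spread to both sides.

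Position on the X chromosome moved with the difference, a pattern noticed after the values were seen. Over protein-coding genes at a mean of at least 1 CPM, 216 of 353 X-linked genes were higher (61.2%) and 62 lower (17.6%), with a median log2 of 0.25. Elsewhere 38.8% of 11133 such genes were higher and 36.8% lower, with a median of 0.02. The shift lay mainly in the part of the chromosome from 60 Mb on (GRCh37), where 154 of 216 genes were higher and 27 lower, with a median of 0.32, against 0.11 over the 137 genes before it. Against Scramble the median of the 216 genes was -0.02 with RNF2 shRNA1 and 0.33 in the libraries labelled RNF2 shRNA2. No autosome had a median beyond 0.09 between the hairpin groups. Without either library labelled RNF2 shRNA2, 151 or 147 of the 216 were higher, and with pairs summed 134. APLN and UTP14A of the largest increases lie in this part, at 128779240 and 129040097 on chromosome X, and so does the collagen gene COL4A6, which stood at 53.9 and 53.7 CPM with RNF2 shRNA1, 87.2 and 94.1 under the RNF2 shRNA2 label and 47.7 and 48.1 with Scramble (log2 0.75). Whether the cells differed in the number of X chromosome copies was not tested.

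**Figure D5:**
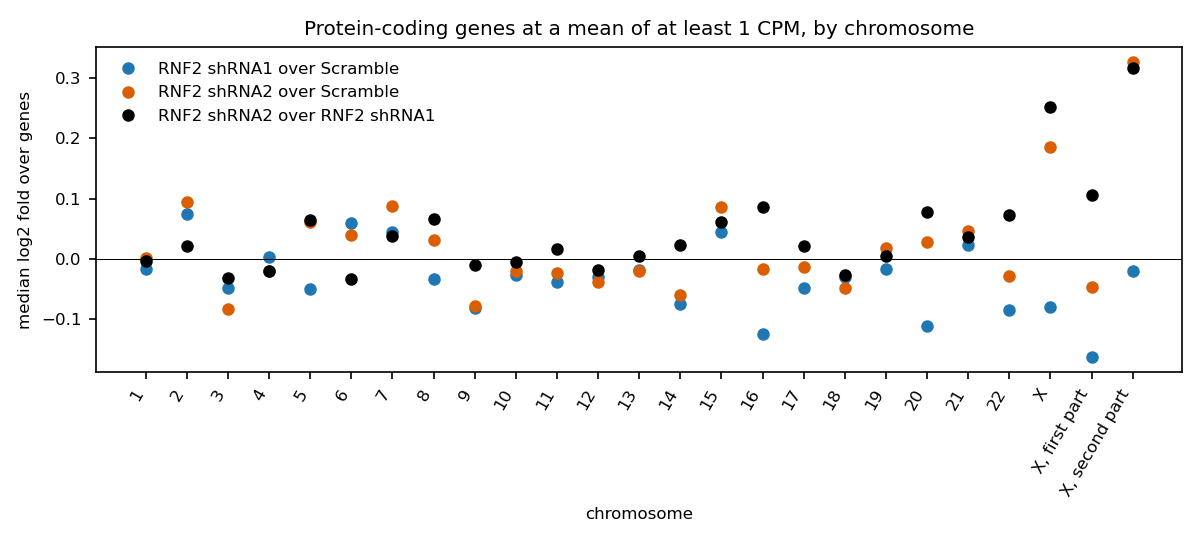
Median log2 fold over protein-coding genes at a mean of at least 1 CPM for each chromosome, with X also split at 60 Mb; black dots are the hairpin groups against each other and coloured dots each group against the shared Scramble libraries. The second part of X has the highest black dot (0.32) and the autosomes lie within 0.09 of 0.

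Mitochondrially encoded protein-coding genes were higher in 8 and lower in 1 of 13, with 5 higher when either RNF2 shRNA1 library was left out and none lower without replicate 1 of that group. The share of all counts from the whole mitochondrial chromosome went the other way. It was 3.24% and 3.23% with RNF2 shRNA1, 2.76% and 2.65% under the RNF2 shRNA2 label and 2.47% and 2.51% with Scramble. The lean of the 13 genes therefore does not hold for mitochondrial RNA as a whole. MT-CYB, the cytochrome b gene, was the furthest at 431 and 439 CPM with RNF2 shRNA1, 893 and 921 in the libraries labelled RNF2 shRNA2 and 605 and 624 with Scramble (log2 1.06, SE 0.028, edgeR adjusted p = 6.8e-20). Of 52 cytosolic ribosomal protein genes 25 were lower and 4 higher (55.8% called, against 69.1% of protein-coding genes). With 1 library left out 19 to 44 were lower, the highest count without replicate 1 labelled RNF2 shRNA2, and 3 to 8 higher, the highest count without replicate 2 of that label. With pairs summed 1 was higher. These genes have near-identical copies. The list of replication-dependent histone genes, most of them also near-identical copies, had 5 lower and 2 higher of 13 (53.8% called). Only 1 was higher without RNF2 shRNA1 replicate 2 or replicate 1 labelled RNF2 shRNA2. The 2 higher genes were H2BC12 (log2 0.11) and H2AZ1 (log2 0.35). H2AZ1 encodes a variant histone that is not replication-dependent, so its call does not describe that class.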

How the data were processed

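Paired-end stranded mRNA libraries of 10 PC3 samples were deposited as 1 table of raw counts per gene and sample. Per the file headers the authors made the counts with featureCounts 1.4.3-p1 on GENCODE 18 with the reverse-strand option and no read-pair option, so read ends were counted, and even values made up 62.7% to 69.6% of counts from 1 to 10. STAR, the build hg19 (GRCh37) and DESeq2 1.8.1 are named in the submitters' processing notes, without their roles. Of 57445 gene identifiers 51812 (90.2%) had a symbol, and 14 of 1213 list entries matched none.

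Counts as deposited were scaled by TMM (factors 0.972 to 1.05) and filtered with edgeR's filterByExpr (minimum count 10), which left 18478 genes. edgeR 4.0.16 (R 4.3.3) fitted a robust quasi-likelihood model, 1 coefficient for each group, to all 10 libraries, so that 5 residual degrees of freedom estimate the spread, and p-values were adjusted by Benjamini-Hochberg over all genes tested. The call threshold was an adjusted p of 0.05. The code of the fit was first run on simulated counts, in which far fewer genes changed than were called here. That run checks the code and not the error rate in these data. Alternatives used limma 3.58.1 (voom), DESeq2 1.42.0, RLE size factors, no filter, a replicate block, the 4 hairpin libraries alone, pairs summed, an adjusted p below 0.01 and leaving out each hairpin library. Tables were made with Python 3.11.15 and pandas 2.3.3.

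Genes are named by rule: the RING and PCGF genes, BMI1, ANGPT1 and UTS2, the 15 largest increases and decreases at a mean of at least 5 CPM in 1 hairpin group, and up to 6 members of each of 37 lists by adjusted p. Beyond these, 42 of the 283 genes followed, among them TEK, YAP1, HIF1A, CCNE1, CHAC1 and SOX2, were chosen after their values were seen. The members and lists were chosen with earlier results of these data known. PCGF2 and Y-linked genes are not reported.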

Additional observations from a re-analysis of the deposited data

Results flagged for a closer look

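Of the 30 genes with the largest differences between the hairpin groups, those below were called in opposite directions in the 2 groups against Scramble. The 30 were picked by that difference, which favours such genes, so their number is no result. Both of those comparisons share the Scramble libraries, and the difference between the groups was tested directly by edgeR (adjusted p from 4.4e-25 to 1.1e-09).

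One set lay below Scramble with RNF2 shRNA1 and above it in the libraries labelled RNF2 shRNA2. ANGPT1 had a log2 of 4.38 between the hairpin groups, with -3.55 for RNF2 shRNA1 and 0.83 for the libraries labelled RNF2 shRNA2 against Scramble. DOK3 had a log2 of 3.13 between the hairpin groups, with -2.67 for RNF2 shRNA1 and 0.46 for the libraries labelled RNF2 shRNA2 against Scramble. UTP14A on the X chromosome had a log2 of 1.79 between the hairpin groups, with -1.21 for RNF2 shRNA1 and 0.58 for the libraries labelled RNF2 shRNA2 against Scramble. The remaining log2 differences were 2.14 for FLVCR2, 2.14 for PRR22, 2.01 for DAGLA, 1.89 for the dynein gene DNAH7, 1.81 for LINC00326 and 1.77 for FAM81A.

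The other set lay above Scramble with RNF2 shRNA1 and below it in the libraries labelled RNF2 shRNA2. UTS2 had a log2 of -5.13 between the hairpin groups, with 2.96 for RNF2 shRNA1 and -2.17 for the libraries labelled RNF2 shRNA2 against Scramble. FGFBP1 had a log2 of -2.94 between the hairpin groups, with 2.25 for RNF2 shRNA1 and -0.69 for the libraries labelled RNF2 shRNA2 against Scramble. The log2 differences were -2.75 for EFEMP2, -2.66 for ZC3H6, -2.53 for CIDEC, -2.49 for CCN1, -2.47 for ALMS1-IT1, -2.35 for TNFAIP8L1 and -2.31 for NTS.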

How the results depend on the processing

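Of 283 genes followed, HOXD1, ITGAM, MT1F and PTPRC were too low to test with the 4 hairpin libraries alone. Of the other 279, 263 kept their direction and their side of the threshold under every alternative run. The 10935 calls between the hairpin groups became 9247 at an adjusted p below 0.01, 10907 with RLE size factors, 10748 without a filter, 10397 with the 4 hairpin libraries alone, 8839 with pairs summed, 10865 with limma-voom, 9776 with DESeq2 and 9547 to 10573 with 1 hairpin library left out, where a lone library is assumed to vary like the other groups. The share of higher genes among calls stayed between 47.3% and 50.9%. Against Scramble, genes higher by at least 2-fold in the libraries labelled RNF2 shRNA2 fell from 305 to 180 at an adjusted p below 0.01 and to 187 with pairs summed, where all higher genes fell from 3895 to 2206, with 7 samples and 2 residual degrees of freedom.

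The replicate numbers do not pair the libraries: deviations of same-numbered libraries correlated between -0.09 and 0.02 across genes. With a replicate block 10838 genes were called between the hairpin groups, 10778 of them shared, 5483 higher and 5355 lower, and MT1F and BIRC5 alone among the followed genes lost their call.

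Log2 values that changed sign were all of genes not called. PCGF1 was -0.0044 with RLE size factors, -0.0055 without a filter, -0.013 with pairs summed, -0.0048 with limma-voom, -0.0023 with DESeq2 and -0.087 to 0.071 with 1 library left out. With pairs summed AURKB was -0.0086, CDKN1A -0.0018 and YAP1 -0.0071. With 1 library left out the ranges were -0.071 to 0.064 for AURKB, -0.078 to 0.073 for CDKN1A, -0.011 to 0.019 for YAP1, -0.079 to 0.021 for HIF1A, -0.057 to 0.00019 for E2F8, -0.039 to 0.023 for MTF1, -0.57 to 0.0093 for SCG2, -0.68 to 0.86 for ITGAM and -0.12 to 1.7 for PTPRC. RING1 was not called by DESeq2 (adjusted p = 0.064), with pairs summed or at an adjusted p below 0.01. Its call was also lost without either RNF2 shRNA1 library (log2 0.22 and 0.20) or replicate 1 labelled RNF2 shRNA2 (log2 0.09). MT2A was not called with pairs summed or the 4 hairpin libraries alone. Of the list counts under these alternatives, 43 differed from the value given by more than 1.5 times. Polycomb target genes higher numbered 10 with pairs summed. Depth limits genes below about 1 CPM, where ITGAM and PTPRC turned sign. The causes were not tested.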

Other observations

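Several signalling lists divided between the directions. Of 43 genes of TGF-beta, activin and BMP signalling 15 were higher and 17 lower by edgeR (74.4% called). SMAD3, a transducer of TGF-beta signals, stood at 252 and 246 CPM with RNF2 shRNA1, 157 and 154 under the RNF2 shRNA2 label and 151 and 159 with Scramble (log2 -0.68). ID3, a target of BMP signals, was higher at 33.6 and 32.4 CPM with RNF2 shRNA1, 64.97 and 65.2 under the RNF2 shRNA2 label and 43.5 and 41.1 with Scramble (log2 0.98). SMAD3 was high with RNF2 shRNA1 alone, and ID3 was above Scramble only in the libraries labelled RNF2 shRNA2. Of 40 genes of Notch and Wnt signalling 13 were higher and 13 lower (65% called, against 69.1% of protein-coding genes). HEY1, a Notch target, stood at 155 and 153 CPM with RNF2 shRNA1, 118 and 119 under the RNF2 shRNA2 label and 204 and 207 with Scramble (log2 -0.38), below Scramble in both hairpin groups. FZD1, a Wnt receptor, was higher at 10.8 and 11.04 CPM with RNF2 shRNA1, 17.8 and 19.01 under the RNF2 shRNA2 label and 16.7 and 15.2 with Scramble (log2 0.75). Of 26 genes of the EGF and FGF families 7 were higher and 13 lower (76.9% called). FGF2 was low only in the libraries labelled RNF2 shRNA2 at 36.7 and 36.5 CPM with RNF2 shRNA1, 23.2 and 24.4 under the RNF2 shRNA2 label and 35.5 and 36.5 with Scramble (log2 -0.62), while FGF5 was above Scramble in both groups at 10.5 and 11.1 CPM with RNF2 shRNA1, 16.2 and 16.05 under the RNF2 shRNA2 label and 6.796 and 5.72 with Scramble (log2 0.58).

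Redox genes under NRF2 were higher in 8 and lower in 15 of 30 (76.7% called, against 69.1% of protein-coding genes). SLC7A11, which imports cystine, stood at 249 and 244 CPM with RNF2 shRNA1, 143 and 159 under the RNF2 shRNA2 label and 131 and 135 with Scramble (log2 -0.70). KEAP1, the inhibitor of NRF2, was higher at 86.1 and 89.996 CPM with RNF2 shRNA1, 129 and 131 under the RNF2 shRNA2 label and 113 and 114 with Scramble (log2 0.56). Both genes stood furthest from Scramble with RNF2 shRNA1. ABCC3, an export pump, was reduced only in the libraries labelled RNF2 shRNA2 at 42.1 and 42.7 CPM with RNF2 shRNA1, 18.5 and 18.3 under the RNF2 shRNA2 label and 42.2 and 40.5 with Scramble (log2 -1.20). Among 20 tRNA synthetase genes 12 were lower and 3 higher (75% called). AARS1, which charges alanine tRNA, stood at 453 and 464 CPM with RNF2 shRNA1, 306 and 304 under the RNF2 shRNA2 label and 282 and 279.7 with Scramble (log2 -0.59), and FARSA, a phenylalanine enzyme subunit, went the other way at 181 and 179.6 CPM with RNF2 shRNA1, 299 and 306 under the RNF2 shRNA2 label and 254 and 252 with Scramble (log2 0.75). Of the 9 genes tested of a luminal prostate list 4 were higher and 3 lower (77.8% called). The list holds the enteropeptidase gene TMPRSS15, and without it 4 of 8 were higher and 2 lower. SLC45A3, a prostate membrane protein, stood at 11.9 and 11.8 CPM with RNF2 shRNA1, 21.1 and 20.2 under the RNF2 shRNA2 label and 21.4 and 21.2 with Scramble (log2 0.79), low with RNF2 shRNA1 alone. Of 15 neuroendocrine genes listed 4 could be tested, and 3 were higher (75% called, against 69.1% of protein-coding genes). Of the 3, ENO2 (log2 0.28) lost its call with pairs summed, and ENO2 and UCHL1 lay below Scramble in both hairpin groups. POU3F2, a neural transcription factor, stood at 9.43 and 9.28 CPM with RNF2 shRNA1, 20.5 and 21.1 under the RNF2 shRNA2 label and 15.7 and 15.7 with Scramble (log2 1.16). UCHL1, a ubiquitin hydrolase, stood at 364 and 369 CPM with RNF2 shRNA1, 546 and 480.3 under the RNF2 shRNA2 label and 577 and 587 with Scramble (log2 0.49).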
